A study of Homo sapiens with 4 samples.

Results

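The 10 genes described here encode the heme-degrading enzyme (HMOX1), the ferritin subunits (FTH1, FTL), the ferritin receptor of autophagy (NCOA4), the transferrin receptor (TFRC), an endosomal ferrireductase (STEAP3), iron importers (SLC11A2, SLC39A14), the iron exporter (SLC40A1) and an iron-sensing RNA-binding protein (IREB2). They were chosen by name, with earlier results of these data known. They were found by Ensembl identifier among 58812 listed genes, of which 19814 had enough counts to test. All 10 passed the filter on low counts. The cells were A549, a human cell line derived from a lung carcinoma, and their RNA was sequenced 24 hr after transfection with 1 µg of plasmid. The plasmid encoded SAMD9 with a Myc-DDK tag (n = 2 libraries) or was the empty vector pCMV6-Entry (n = 2 libraries). Both groups are therefore transfected cells, and untransfected cells were not part of the comparison. The labels do not say whether replicates were separate cultures, so p-values measure the spread between these libraries, which may be technical.

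Iron enters most cells bound to transferrin, is released and reduced in endosomes, and reaches the cytosol through divalent metal transporters. What is not used is stored in ferritin, a shell of heavy (FTH1) and light (FTL) chains, or leaves through ferroportin (SLC40A1). Heme oxygenase 1 (HMOX1) adds to the cytosolic pool by opening the heme ring, which yields iron, biliverdin and carbon monoxide. Iron regulatory proteins, encoded by ACO1 and IREB2, bind hairpins called iron-responsive elements when iron is scarce. Binding in a 5′ UTR blocks translation, as for ferritin and ferroportin, and binding in the 3′ UTR of TFRC protects the mRNA from decay.

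These hairpins are shown because they tie several of the 10 genes to one control. A search for an unpaired C, a stem of 5 base pairs (G-T pairs allowed) and a loop of 6 bases, CAGTGN with N not G, was run on the transcribed strand of protein-coding transcripts in GENCODE 29 (GRCh38). Matches in a UTR that lie within a single exon were counted for 4 of the 10 genes, FTH1, FTL, SLC40A1 and TFRC. SLC39A14 was left out of that count, so no absence is stated for it. Without these limits, 123 of 19652 genes searched (0.626%) had a match, so the counts are not compared. SLC11A2 is listed with such an element in textbooks, and no match to this strict pattern within a single exon was counted for it. The matches of 3 genes are printed 5′ to 3′ as DNA with the loop in capitals. They lie in the 5′ UTR of FTL (chr19:48965335-48965363, plus strand) and of SLC40A1 (chr2:189580661-189580689, minus strand). TFRC has 4 in its 3′ UTR on the minus strand, the first in transcript order at chr3:196050979-196051007 and the last at chr3:196050463-196050491.
FTL: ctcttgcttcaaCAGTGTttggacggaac
SLC40A1: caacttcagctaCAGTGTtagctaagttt
TFRC element 1: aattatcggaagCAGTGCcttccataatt
TFRC element 2: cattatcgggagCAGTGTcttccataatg
TFRC element 3: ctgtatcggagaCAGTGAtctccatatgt
TFRC element 4: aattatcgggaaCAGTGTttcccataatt

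Library totals ranged from 29301854 to 39670083 counts. SAMD9 stood at 5903 and 6439 CPM (the count relative to the library total after edgeR's TMM scaling) in the SAMD9 libraries, against 14.2 and 11.95 CPM with empty vector, and reads of the plasmid and of the cell's own gene are not separated. The 9 lung epithelium markers summed to 8103 and 7894 CPM with SAMD9 and 6278 and 7082 CPM with empty vector. Among them KRT7, KRT8 and KRT18 were abundant, whereas KRT19, NKX2-1 and SFTPC had at most 10 counts in any library. The 10 leukocyte and macrophage markers summed to 7.40 and 7.06 CPM with SAMD9 and 6.65 and 6.36 CPM with empty vector. The 8 erythroid markers summed to 11.2 and 11.1 CPM with SAMD9 and 12.5 and 15.3 CPM with empty vector, and 2 of them had 0 counts in every library. The 10 fibroblast and endothelial markers summed to 6.84 and 7.13 CPM with SAMD9 and 2.43 and 3.35 CPM with empty vector, mostly COL1A1, while DCN had 0 counts in every library. The part of these marker differences in the results was not tested.

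The comparison of SAMD9 with empty vector asks how these transcripts stand after SAMD9 overexpression. HMOX1 and FTH1 rose, SLC40A1 fell, and the other 7 genes did not pass the test. A gene was called at an edgeR quasi-likelihood p below 0.05 after Benjamini-Hochberg adjustment over all 19814 genes. The 3 called genes are 30% of the 10, beside 27.5% of all genes tested, so the share is close to the background. By direction, 2 were higher, beside 15.3% of all genes, and 1 was lower, beside 12.2%. The libraries of the groups did not overlap for 8 of the 10 genes, beside 62% of all genes. The median log2 fold change was 0.00 over the 10 genes and -0.01 over all genes tested. Library totals in place of TMM moved the log2 value of the median gene by -0.19. Under that scaling 1 of the 10 genes was higher (HMOX1), beside 9.96% of all genes, and 5 were lower (SLC40A1, STEAP3, IREB2, TFRC and SLC11A2), beside 28.5% of all genes. The statements below are relative to the TMM scale unless they say otherwise.

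**Figure D1:**
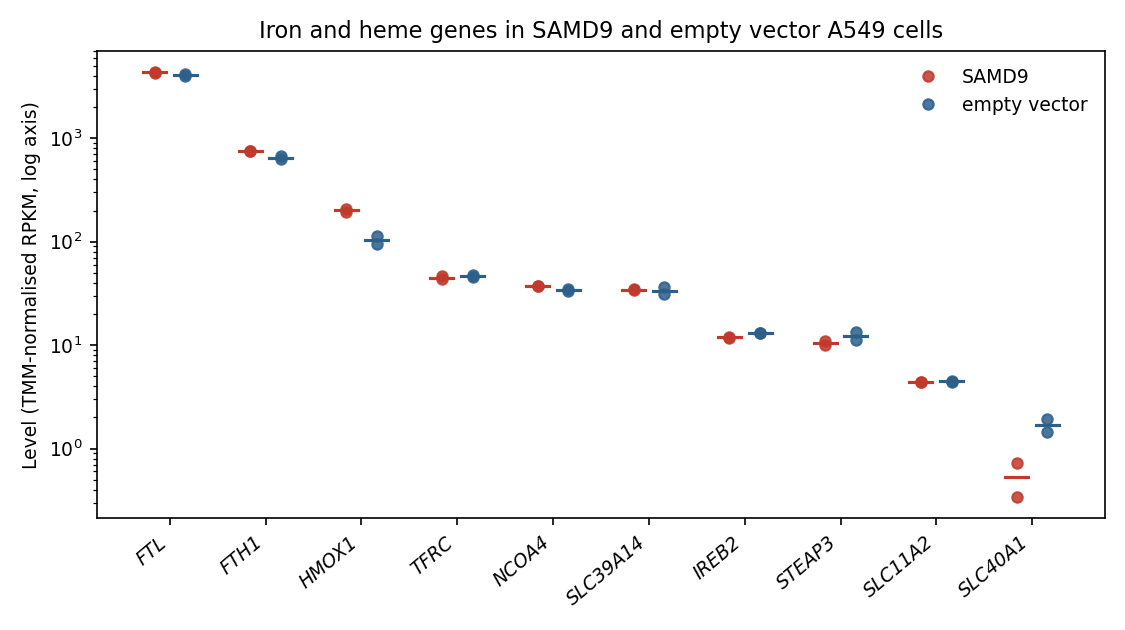
Level of each of the 10 genes in every library (points) and the mean of 2 libraries (bars), as RPKM on a log axis, SAMD9 in red and empty vector in blue. FTL and FTH1 are the highest of the 10 in both groups, and the gap between groups is visible for HMOX1 and SLC40A1.

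Levels per kilobase of exon (RPKM from TMM-scaled counts) ran from rank 2 (FTL) to rank 11774 with SAMD9 and 9873 with empty vector (SLC40A1) among 14045 tested protein-coding genes. FTL stood at 4335 ± 57.2 RPKM with SAMD9 and 4089 ± 140 RPKM with empty vector (SD, n = 2). FTH1 followed at 756 ± 5.88 RPKM with SAMD9 and 651 ± 38.2 RPKM with empty vector, rank 23 in both. HMOX1 came next at 200.5 ± 10.6 RPKM with SAMD9 and 105 ± 14.2 RPKM with empty vector, ranks 132 and 259. The other genes were far lower, the FTH1 level being 17.4 and 16.2 times that of TFRC with SAMD9 and 13.8 and 14.1 times with empty vector. TFRC averaged 45.0 RPKM, NCOA4 37.3, SLC39A14 34.5, IREB2 11.9, STEAP3 10.6, SLC11A2 4.38 and SLC40A1 0.532 RPKM in the SAMD9 libraries. With empty vector the order was the same. There the libraries overlapped between NCOA4 and SLC39A14 and between IREB2 and STEAP3, so those neighbours did not differ beyond their spread. In the SAMD9 libraries no neighbours in this order overlapped.

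The transcript of the first enzyme of heme breakdown was higher with SAMD9. HMOX1 (ENSG00000100292, GRCh38 chromosome 22, 35380361 to 35394214) had 17317 and 14322 counts with SAMD9 and 8626 and 7609 counts with empty vector. Both SAMD9 libraries, at 464 and 500 CPM, were above both empty vector libraries, at 276 and 227 CPM. The log2 fold change was 0.94 (SE 0.07, 95% interval 0.79 to 1.09, edgeR adjusted p = 5.5e-10), or 1.92-fold. Without 1 library in turn it lay between 0.81 and 1.09, and it was 0.75 with total-count scaling. The constitutive isozyme gene HMOX2 was at 29.4 and 31.9 CPM with SAMD9 and 33.6 and 30.9 CPM with empty vector, a difference of -0.07 on the log2 scale (SE 0.10, edgeR adjusted p = 0.63) that was called lower under total-count scaling (-0.26, adjusted p = 0.035). Per length, the HMOX1 level was 24.9 and 24.8 times that of HMOX2 with SAMD9 and 13.0 and 11.6 times with empty vector. The genes with values nearest to HMOX1 across the 4 libraries were BAZ2A, SMG1 and TRIP12, at Euclidean distances of 0.184, 0.236 and 0.272 on log2(CPM + 1), a likeness that any gene of similar level and change has.

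Ferritin transcripts differed little between the groups. FTH1 (ENSG00000167996, chromosome 11, 61959718 to 61967660), the subunit that oxidises iron, was at 1543 and 1526 CPM with SAMD9 and 1266 and 1376 CPM with empty vector. Its log2 fold change was 0.22 (SE 0.05, 95% interval 0.11 to 0.32, edgeR adjusted p = 0.0029), or 1.16-fold, with both SAMD9 libraries above both empty vector libraries. Without 1 library in turn the value lay between 0.16 and 0.28. A fit of that kind has 1 library in a group and takes its spread from the other pair alone. The call ended under total-count scaling (0.03, edgeR adjusted p = 0.73). FTL (ENSG00000087086, chromosome 19, 48965301 to 48966878), the subunit that favours iron mineral growth, was at 3771 and 3842 CPM with SAMD9 and 3504 and 3677 CPM with empty vector. Its log2 fold change was 0.08 (SE 0.05, 95% interval -0.01 to 0.18, edgeR adjusted p = 0.19). The range without 1 library in turn was 0.05 to 0.12. The ratio of FTH1 to FTL levels per length was 0.177 and 0.172 with SAMD9 and 0.156 and 0.162 with empty vector, without overlap. For a single ratio the smallest two-sided p of an exact permutation test is 0.333 at this number of libraries.

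Ferritin genes have many processed copies, which bears on their counts. Of the 31-base words in FTH1 transcripts 33.6% also occur in other genes, most of them in FTH1P10, and for FTL 33.3% do, most of them in FTLP3. The 25 listed FTH1 pseudogenes together had 7.21% and 7.64% of the FTH1 count with SAMD9 and 7.56% and 7.45% with empty vector. FTH1P8, FTH1P23 and FTH1P2 had the most counts, with log2 fold changes of 0.15, 0.12 and 0.34. The 16 listed FTL pseudogenes had 2.10% and 2.13% of the FTL count with SAMD9 and 2.06% and 1.99% with empty vector, led by FTLP3, FTLP2 and FTLP17. These shares were similar in all 4 libraries, and the division of reads between parents and copies remains uncertain. BEST1, a gene on the opposite strand, shares 1267 exonic bases with FTH1, 62.4% of the listed FTH1 length. It had at most 189 counts in any library and a log2 fold change of -0.69 (edgeR adjusted p = 0.023). The strand setting of the counting is not known, so the low BEST1 count does not show that the FTH1 count is unaffected. The part of this overlap in the FTH1 level was not tested.

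NCOA4 (ENSG00000266412), which delivers ferritin to autophagosomes so that its iron is released, was at 152 and 153 CPM with SAMD9 and 142 and 136 CPM with empty vector. The libraries did not overlap, and the log2 fold change of 0.13 (SE 0.06) did not pass the test (edgeR adjusted p = 0.14). Of its 31-base words 13.0% occur in other genes, most in the pseudogene NCOA4P3. The cytosolic iron chaperones of ferritin are poly(C)-binding proteins. PCBP1 was at 212 and 205 CPM with SAMD9 and 176 and 190 CPM with empty vector, a rise of 0.19 on the log2 scale (SE 0.06, edgeR adjusted p = 0.028). That call ended without SAMD9 replicate 1 (0.17, adjusted p = 0.24), SAMD9 replicate 2 (0.22, adjusted p = 0.10) or empty vector replicate 1 (0.13, adjusted p = 0.11), and under total-count scaling (0.00). Of the 7 storage and chaperone genes tested, 2 rose (FTH1 and PCBP1, beside 15.3% of all genes) and 0 fell (beside 12.2%), with a median log2 fold change of 0.13. Both of these calls ended under total-count scaling.

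**Figure D2:**
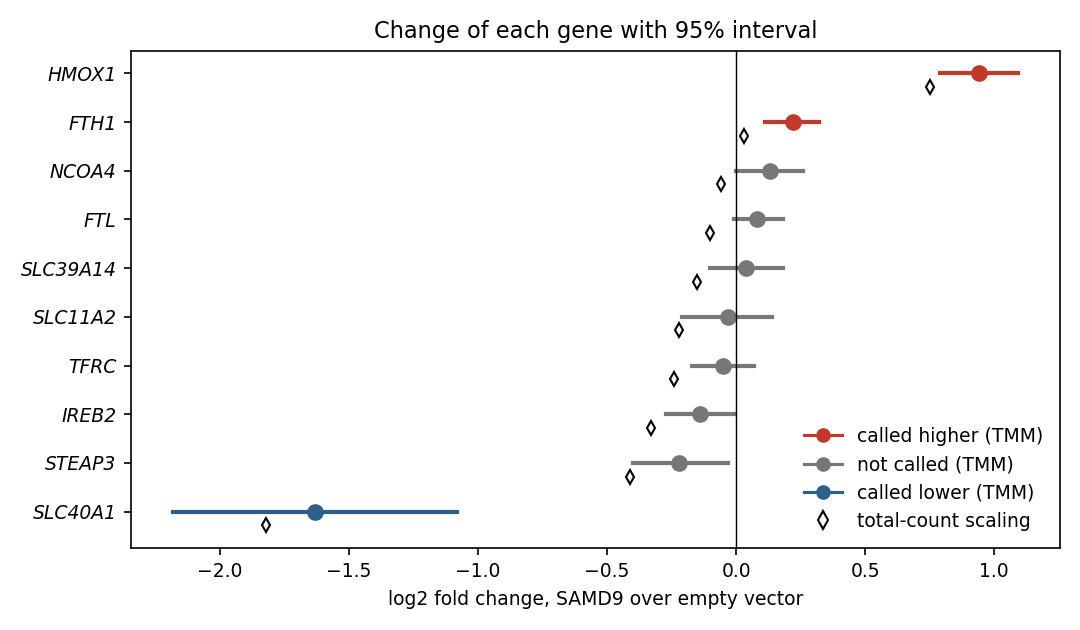
Log2 fold change of SAMD9 over empty vector for each of the 10 genes with its 95% interval from edgeR (circles and bars), and the value under total-count scaling (diamonds). HMOX1 at 0.94 and SLC40A1 at -1.63 keep their side under both scalings, whereas the diamonds of all 10 genes lie to the left by about that shift.

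None of the 4 uptake genes among the 10 passed the test on the TMM scale. TFRC (ENSG00000072274, chromosome 3), which brings transferrin-bound iron into the cell, was at 344 and 366 CPM with SAMD9 and 356 and 379 CPM with empty vector. The groups overlapped, and the 95% interval of its log2 fold change ran from -0.17 to 0.07. SLC11A2, the divalent metal transporter DMT1 that moves iron out of the endosome, was at 43.2 and 42.9 CPM with SAMD9 and 43.5 and 44.6 CPM with empty vector, an interval of -0.21 to 0.14. SLC39A14, the metal importer ZIP14, was at 240.1 and 238 CPM with SAMD9 and 251 and 215 CPM with empty vector, an interval of -0.10 to 0.18. The SLC39A14 value was 0.16 without empty vector replicate 1 and -0.06 without empty vector replicate 2. STEAP3, which reduces ferric iron in the endosome, was lower in both SAMD9 libraries, at 50.2 and 46.2 CPM against 51.4 and 60.8 CPM with empty vector. Its log2 fold change of -0.22 (SE 0.09) gave an edgeR adjusted p of 0.076. Without 1 library in turn that value lay between -0.33 and -0.09. Total-count scaling gave -0.24 for TFRC, -0.22 for SLC11A2 and -0.41 for STEAP3, all 3 called lower.

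Among the other uptake and reduction genes the largest difference was in LRP2. It encodes megalin, an endocytic receptor that takes up many carrier proteins. LRP2 had 150 and 154 counts with SAMD9 and 8 and 10 with empty vector, a log2 difference of 4.06 (SE 0.37, edgeR adjusted p = 8.6e-09). STEAP1, of the STEAP metalloreductase family, rose by 0.49 (SE 0.09) on the log2 scale, and SNX3, which recycles the transferrin receptor from endosomes, by 0.46 (SE 0.07). SLC39A8, the importer ZIP8, was at 43.8 and 46.2 CPM with SAMD9 and 35.3 and 34.4 CPM with empty vector, a rise of 0.37 (SE 0.09) that did not pass under total-count scaling (0.18, adjusted p = 0.11). In all, 5 of the 14 uptake and reduction genes tested rose, beside 15.3% of all genes, and 0 fell, beside 12.2%, with a median of 0.11. TFR2, a transferrin receptor of liver and erythroid cells, had a log2 difference of -0.21 (SE 0.16, edgeR adjusted p = 0.36), and was called lower under total-count scaling (-0.40, adjusted p = 0.048).

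Iron export showed the largest change among the 10 genes, at the lowest level. SLC40A1 (ENSG00000138449, chromosome 2, 189560579 to 189583758), the only known cellular iron exporter in mammals, had 117 and 42 counts with SAMD9 and 195 and 280 counts with empty vector. These are 3.14 and 1.47 CPM with SAMD9 and 6.23 and 8.37 CPM with empty vector, so both SAMD9 libraries were below both empty vector libraries. As a ratio, the SAMD9 libraries also stood farther from each other than the empty vector libraries did. The log2 fold change was -1.63 (SE 0.26, 95% interval -2.18 to -1.08, edgeR adjusted p = 4.7e-05), or 3.11-fold lower. It was -2.31 without SAMD9 replicate 1 and -1.21 without SAMD9 replicate 2. Without empty vector replicate 1 it was -1.83, and -1.40 without empty vector replicate 2. The ratio of TFRC to SLC40A1 levels per length was 60.1 and 137 with SAMD9 and 31.4 and 24.8 with empty vector.

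Genes of export and of its systemic control were called in both directions. With SLC40A1 included, 6 of 14 tested genes were higher, beside 15.3% of all genes, and 4 were lower, beside 12.2%, with a median of 0.07. CP, which encodes ceruloplasmin, a ferroxidase that works with ferroportin, was at 15.4 and 12.5 CPM with SAMD9 and 4.64 and 4.66 CPM with empty vector. Its log2 fold change was 1.59 (SE 0.16, edgeR adjusted p = 5.6e-08). CP shares 1418 exonic bases with HPS3 on the opposite strand, which had a log2 fold change of -0.08. BMPR2 and ACVR1, receptors of the BMP pathway that controls hepcidin in liver, rose by 0.91 (SE 0.07) and 0.58 (SE 0.10). The pathway's ligands were called in opposite directions, BMP2 at 1.03 (SE 0.20, edgeR adjusted p = 0.00042) and BMP6 at -0.70 (SE 0.17, adjusted p = 0.0028). So were its effectors, SMAD1 at 0.69 (SE 0.13, edgeR adjusted p = 0.00034) and SMAD5 at -0.46 (SE 0.08, adjusted p = 7.4e-05). The inhibitor gene SMAD7 fell by 0.53 (SE 0.09, edgeR adjusted p = 0.00016). HAMP, the hepcidin gene, had 5 and 3 counts with SAMD9 and 6 and 0 with empty vector, too few to test.

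Of the genes of the iron regulatory proteins, ACO1 was called higher and IREB2 was not called. IREB2 (ENSG00000136381, chromosome 15), which encodes IRP2, was at 127 and 130 CPM with SAMD9 and 141 and 142 CPM with empty vector. The groups did not overlap, and the log2 fold change of -0.14 (SE 0.06) did not pass (edgeR adjusted p = 0.11), although it was -0.33 and passed under total-count scaling (adjusted p = 0.000232). ACO1, which encodes IRP1, the protein that is cytosolic aconitase when it holds an iron-sulfur cluster, was at 88.3 and 79.8 CPM with SAMD9 and 50.9 and 56.4 CPM with empty vector. It rose by 0.65 on the log2 scale (SE 0.08, edgeR adjusted p = 1.1e-06). The ratio of ACO1 to IREB2 levels per length was 0.998 and 0.875 with SAMD9 and 0.515 and 0.568 with empty vector. FBXL5, the iron-sensing subunit of the ligase that degrades IRP2, had a log2 difference of 0.01 (SE 0.09, edgeR adjusted p = 0.94). HERC2, a ubiquitin ligase that degrades NCOA4, fell by 0.30 (SE 0.06), with the call lost without SAMD9 replicate 2 (-0.25, adjusted p = 0.060). CIAO1, of the cytosolic iron-sulfur assembly machinery, fell by 0.20 (SE 0.07, edgeR adjusted p = 0.036). That call ended without SAMD9 replicate 1 (adjusted p = 0.23), SAMD9 replicate 2 (0.22) or empty vector replicate 1 (0.073), with the replicate block (0.054) and with DESeq2 (0.076).

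Of the 9 tested genes listed in textbooks with an iron-responsive element, 1 rose (FTH1), beside 15.3% of all genes. SLC40A1 and CDC42BPA, 2 of the 9, fell, beside 12.2% of all genes, and 6 were not called. The FTH1 call ended under total-count scaling. CDC42BPA, a kinase gene with an element in its 3′ UTR, was at 126 and 110 CPM with SAMD9 and 183 and 180 CPM with empty vector, a log2 difference of -0.62 (SE 0.07, edgeR adjusted p = 2.6e-07). CDC14A had a log2 difference of 0.33 (SE 0.14, edgeR adjusted p = 0.097) and EPAS1, which encodes HIF-2 alpha, of -0.03 (SE 0.06). EPAS1 was called lower under total-count scaling (-0.21, edgeR adjusted p = 0.0044). ALAS2, the erythroid gene of heme synthesis, had 4 and 6 counts with SAMD9 and 0 and 1 with empty vector, too few to test. Among the genes named here, those with the element in the 5′ UTR had values from -1.63 to 0.22, and those with it in the 3′ UTR from -0.62 to 0.33. Gene counts do not report translation, through which the 5′ elements act.

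The other genes around heme breakdown included partners in its transcriptional control. BACH1, the heme-sensing repressor that keeps HMOX1 off, was at 87.7 and 84.4 CPM with SAMD9 and 49.4 and 41.9 CPM with empty vector, a rise of 0.92 (SE 0.08, edgeR adjusted p = 8.9e-09). The small Maf proteins pair either with BACH1 or with the activator NRF2 on the same sites. MAFF rose by 1.29 (SE 0.07, edgeR adjusted p = 3.3e-12), with 96.1 and 96.8 CPM in the SAMD9 libraries and 39.95 and 38.7 CPM in the empty vector libraries. MAFK rose by 0.33 (SE 0.06) and POR, which passes electrons to heme oxygenase, by 0.27 (SE 0.06). Neither MAFK (0.14, adjusted p = 0.073) nor POR (0.08, adjusted p = 0.35) passed under total-count scaling, and 809 exonic bases of MAFK lie opposite TMEM184A, which had a log2 fold change of -0.61. NFE2L2, which encodes NRF2, had a log2 difference of 0.14 (SE 0.07, edgeR adjusted p = 0.16), and KEAP1, its inhibitor, of -0.07 (SE 0.07, adjusted p = 0.57). NFE2L2 was at 0.20 without empty vector replicate 1 and at -0.05 under total-count scaling, where KEAP1 was called lower (-0.25, edgeR adjusted p = 0.0084). The biliverdin reductase genes BLVRA and BLVRB, which act after heme oxygenase, had 0.14 (SE 0.08) and -0.03 (SE 0.07), and BLVRB was called lower under total-count scaling (-0.21, edgeR adjusted p = 0.018). Of the 11 genes of this list, 5 rose, beside 15.3% of all genes, and 0 fell, beside 12.2%, with a median of 0.14. Of the 5, MAFK and POR are those lost under total-count scaling.

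Of 8 heme synthesis genes tested, 2 fell, beside 12.2% of all genes, and 0 rose, beside 15.3%, with a list median of -0.10. FECH, which inserts iron into the ring, fell by 0.26 (SE 0.09, edgeR adjusted p = 0.027). The FECH call ended without SAMD9 replicate 1 (edgeR adjusted p = 0.095), SAMD9 replicate 2 (0.24) or empty vector replicate 1 (0.13) and with DESeq2 (0.081). ALAS1, the rate-limiting enzyme of synthesis outside the erythroid line, had -0.09 (SE 0.08, edgeR adjusted p = 0.48), and was called lower under total-count scaling (-0.28, adjusted p = 0.0086). Of 10 heme transport genes tested, 3 fell and 0 rose, beside the same shares of all genes, with a median of -0.20. FLVCR1, described as a heme exporter, was at 35.0 and 36.2 CPM with SAMD9 and 48.4 and 50.2 CPM with empty vector, a fall of 0.47 (SE 0.08, edgeR adjusted p = 0.00016). The heme chaperone gene PGRMC2 fell by 0.33 (SE 0.08) and SLC48A1, which moves heme out of lysosomes, by 0.22 (SE 0.07). The PGRMC2 call ended without SAMD9 replicate 1 (edgeR adjusted p = 0.13), and the SLC48A1 call ended without SAMD9 replicate 1 (0.19), SAMD9 replicate 2 (0.13) or empty vector replicate 2 (0.051).

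Mitochondrial iron genes held 1 of the clearest rises. SLC25A28, which encodes the iron importer mitoferrin 2, was at 108 and 110 CPM with SAMD9 and 19.8 and 23.5 CPM with empty vector. Its log2 fold change was 2.33 (SE 0.09, edgeR adjusted p = 8.6e-16), or 5.02-fold. The related importer gene SLC25A37, mitoferrin 1, had 0.16 (SE 0.07, edgeR adjusted p = 0.085). HSCB, a co-chaperone of iron-sulfur cluster transfer, rose by 1.25 (SE 0.17, edgeR adjusted p = 5.0e-06). Its exons share 301 bases, 20.6% of its length, with a gene on the opposite strand that rose by 1.38. ISCA1 fell by 0.32 (SE 0.12), with the call lost without SAMD9 replicate 2 (edgeR adjusted p = 0.37) or empty vector replicate 1 (0.24) and with DESeq2 (0.15). Of the 19 tested genes of this list, 2 were higher, beside 15.3% of all genes, and 1 was lower, beside 12.2%. The other 16 were not called, and the list median was -0.02.

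**Figure D3:**
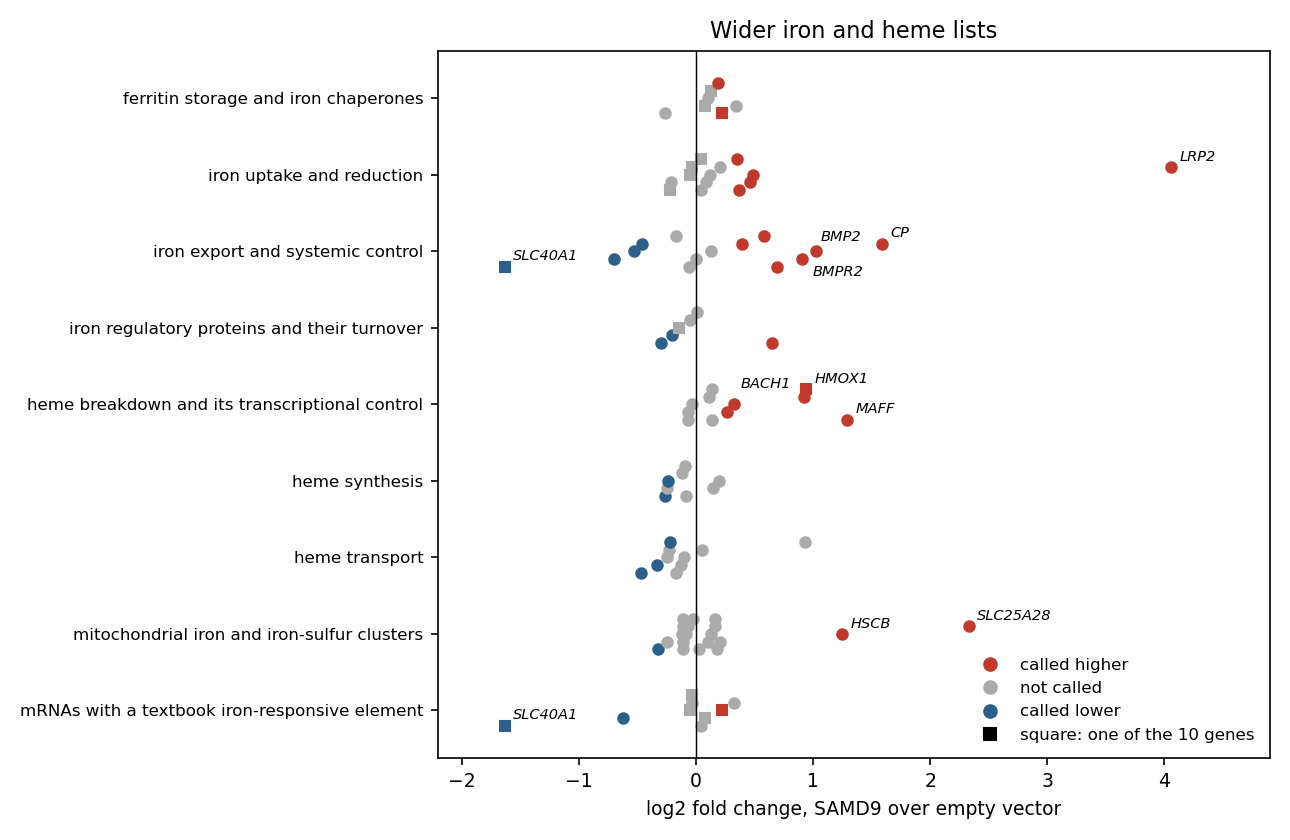
Log2 fold change of SAMD9 over empty vector for the tested genes of each iron and heme list, with called genes in red (higher) or blue (lower), squares for the 10 genes, and names where a called value is beyond 0.85. LRP2 at 4.06 and SLC25A28 at 2.33 lie farthest to the right and SLC40A1 at -1.63 farthest to the left.

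Over all lists, 93 of 104 iron and heme genes could be tested, of which 21 were higher, beside 15.3% of all genes, and 13 lower, beside 12.2%, with a median of 0.03 beside -0.01 for all genes. Without the 10 genes, 19 of 83 were higher and 12 lower. With total-count scaling the split of the 93 was 14 higher against 38 lower, beside 9.96% and 28.5% of all genes. Counts of called genes from fits without 1 library are not given, as those fits have 1 library in a group. Promoters (250 bases before to 50 after the start, RefSeq, GRCh38.p14) were found for 7 of the 10 genes and not for HMOX1, FTH1 and SLC39A14. On either strand, 0 of the 7 held the antioxidant response element core TGACNNNGC, which 13.3% of all promoters hold, and 0 held the interferon-stimulated response element, searched as GAAA, 2 free bases and GAAA, which 3.57% hold. The antioxidant core overlaps the recognition element of Maf proteins. No match says only that these letters are not in this window.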

How the data were processed

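Libraries were made from total RNA with KAPA RiboErase, a ribosomal RNA depletion kit, per the labels. Each deposited file gave raw counts per gene for 1 library, with CPM (counts scaled to the library total) and RPKM (CPM per kilobase of listed length) that the authors had computed and that were not tested. Tools per the submitters' processing notes were STAR 2.5.1a and featureCounts 1.4.6-p5, with the build GRCh38; the settings for strand and multi-mapping reads and the annotation release: not given in the sources used here.

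Counts were tested with edgeR 4.0.16 (R 4.3.3): filterByExpr (minimum count 10, total 15), TMM factors of 0.941 and 0.932 for SAMD9 and 1.07 and 1.07 for empty vector, and the quasi-likelihood F-test without covariate, after a check on simulated data. The simulation changed few genes, as many up as down, so it does not bear on the choice of scaling. SE is the absolute log2 fold change over the square root of F. Alternatives were total-count scaling, DESeq2 1.42.0, no filter, a replicate block and leaving out each library. The last leaves 1 library in a group, so spread within groups comes from the other pair alone. A call kept or lost there does not measure spread in both groups. Named genes were the 10 genes, every gene of the iron-responsive element list, and up to 4 called genes with the lowest p of each list; some of these are not reported here. Others beside them (HMOX2, FBXL5, TFR2, HAMP, BMP2, BMP6, SMAD1, SMAD7, NFE2L2, KEAP1, BLVRA, BLVRB, ALAS1, SLC25A37) are list members named after their values were seen. The genes and lists were chosen with earlier results of these data known. Symbols came from a gene name table and GENCODE 29 (55297 of 58812 identifiers).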

Additional observations from a re-analysis of the deposited data

How the results depend on the processing

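For the 10 genes, the counts of 2 higher and 1 lower were the same with DESeq2, without a filter and with the replicate number as a block. Over all genes the calls were 2456 higher and 1637 lower of 20043 with DESeq2, and 3000 higher and 2427 lower of 36173 without a filter. Total-count scaling gave 1 higher (beside 9.96% of all genes) and 5 lower (beside 28.5%) of the 10. Of all iron and heme genes tested it gave 14 higher and 38 lower. On the TMM scale these were 21 and 13, beside 15.3% and 12.2% of all genes. Leaving out 1 library leaves 1 in a group, so counts of called genes from those fits are not given. The labels do not say whether same-numbered libraries of the 2 groups were prepared together. Their deviations correlated at 0.00983, which with 2 libraries per group cannot exclude it. The block gave 2914 higher and 2330 lower genes, against 3038 and 2420 without it, and 21 higher and 11 lower iron and heme genes. The direction turned, with no call on either side, under total-count scaling for FTL (-0.10), SLC39A14 (-0.15), NCOA4 (-0.06), FBXL5 (-0.18), NFE2L2 (-0.05), BLVRA (-0.05) and SLC25A37 (-0.03). Leaving out a library gave -0.06 to 0.16 for SLC39A14, -0.08 to 0.12 for FBXL5 and -0.10 to 0.06 for BLVRB. HMOX1 and SLC40A1 were called in the same direction under all 8 alternatives, and FTH1 under 7. The cause of these dependences was not tested. Depth limits SLC40A1 most among the 10 genes, with 42 counts in 1 library, and LRP2 had 8 and 10 counts with empty vector. Among counts from 1 to 20, 72.9% were even, against 49.7% above 1000, and the part of this in the values was not tested.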
